A study of Homo sapiens with 10 samples.

Results

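Aldehyde dehydrogenases are enzymes that oxidise aldehydes to carboxylic acids, with a nicotinamide nucleotide as the electron acceptor. The 10 genes described here were taken by name from the deposited transcript annotation: ALDH1A1, ALDH1A2, ALDH1A3, ALDH1B1, ALDH2, ALDH3A1, ALDH3A2, ALDH7A1, ALDH9A1 and ALDH18A1. They are 10 of 57110 gene identifiers and hold 43 of 99493 transcripts. Their levels were read in 7 human ovarian cancer cell lines by long-read RNA sequencing on nanopore instruments. The PromethION instrument gave 1 library each of COV362, COV504, OVKATE, OVMANA, OVTOKO and SK-OV-3 and 2 of IGROV-1, and the MinION, a smaller nanopore instrument, gave 2 more of IGROV-1. The labels give no treatment, and nothing in them says whether the replicate libraries came from separate cultures, so p-values measure the spread between these libraries, which may be technical. In bulk RNA, fewer cells that express a gene and less RNA per cell cannot be told apart.

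The family divides by substrate. ALDH1A1, ALDH1A2 and ALDH1A3 are cytosolic enzymes that oxidise retinaldehyde to retinoic acid, the ligand of the nuclear retinoic acid receptors, and ALDH1A enzyme activity is widely used to sort stem-like cells from ovarian cancers. ALDH2 and ALDH1B1 are mitochondrial enzymes that clear acetaldehyde and related small aldehydes. ALDH3A1 acts on aromatic and medium-chain aldehydes, and ALDH3A2 on fatty aldehydes in the membrane of the endoplasmic reticulum. ALDH7A1 works in lysine breakdown, ALDH9A1 in carnitine synthesis, and ALDH18A1 reduces glutamate toward the precursor of proline and ornithine.

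Several forms of these genes differ by only a few bases or exons, so the sequences that tell them apart are shown first, as transcript sequence of GENCODE 29 on GRCh38, 5′ to 3′. ALDH18A1, on the minus strand of chromosome 10, has a long form (ENST00000371224) and a short form (ENST00000371221) that end exon 6 at different donor sites, at 95633491 and 95633497. The capitals mark the 6 bases that the long form keeps within its coding sequence.
ALDH18A1 long form: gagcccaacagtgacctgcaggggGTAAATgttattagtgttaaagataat
ALDH18A1 short form: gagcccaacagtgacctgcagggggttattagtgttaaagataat
ALDH1A3, on the plus strand of chromosome 15, has a full form of 13 exons (ENST00000329841) and a form of 10 exons (ENST00000346623). The latter joins the exon at 100887572 to 100887712 directly to the exon at 100895933 to 100896046 and so lacks 3 coding exons of 321 nt together. The capitals mark the exon that follows the junction.
ALDH1A3 full form: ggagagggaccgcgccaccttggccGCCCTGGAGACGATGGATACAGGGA
ALDH1A3 full form, end of the optional exons: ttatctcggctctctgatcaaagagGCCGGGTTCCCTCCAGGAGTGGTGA
ALDH1A3 form lacking 3 exons: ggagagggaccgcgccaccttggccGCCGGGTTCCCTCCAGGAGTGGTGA
ALDH3A2, on the plus strand of chromosome 17, ends in its leading form (ENST00000176643) with the exon that starts at 19675558, while a second form (ENST00000339618) inserts an exon of 125 nt at 19673151 to 19673275 and has a coding sequence 69 nt longer. The capitals mark the last exon of the leading form and the start of the inserted exon.
ALDH3A2 leading form: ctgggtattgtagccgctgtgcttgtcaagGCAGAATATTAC
ALDH3A2 form with the added exon: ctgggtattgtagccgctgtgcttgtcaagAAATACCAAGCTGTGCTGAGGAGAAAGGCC

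Library totals ranged from 1729782 to 3666224 estimated counts, and levels are given as CPM, the count scaled by that total. A count of 0 in a library allows a level of up to 0.818 to 1.73 CPM (3 counts of the total), and up to 0.643 CPM over both IGROV-1 PromethION libraries. All intervals and floors cover counting error only. Mitochondrial ribosomal RNA took 9.13% and 10.9% of the IGROV-1 PromethION libraries, 1.01% to 1.15% of the MinION libraries and 1.58% to 3.31% of the other lines. With this RNA left out, ALDH1A1 in IGROV-1 PromethION stood at 2355 and 2321 CPM, and no call on the 10 genes was lost or gained. PAX8, a transcription factor of the ovarian and tubal lineage, was present in every library, at 84.1 to 340 CPM. Of the other 6 epithelial markers, IGROV-1 had KRT7 at 0, EPCAM at 0 to 1.54 CPM, MUC16 at 0 to 0.859 CPM and KRT8 at 5.15 to 11.4 CPM, but KRT19 at 140 to 177 CPM. KRT18 was at 263 and 1041 CPM in its PromethION and 244 and 1080 CPM in its MinION libraries. Low values were not particular to IGROV-1. OVTOKO had KRT19 at 0.578 CPM, EPCAM at 8.67 CPM, KRT7 at 14.5 CPM and MUC16 at 0, but KRT8 at 134 CPM and KRT18 at 314 CPM. SK-OV-3 also had MUC16 at 0. Of the leukocyte markers reported here, CD3E was at 0 in all 10 libraries, PTPRC reached 0.445 CPM, LYZ was highest in OVKATE at 12.4 CPM, and a joined entry that includes CD68 was at 347 to 1065 CPM. Among fibroblast markers, SK-OV-3 had COL1A1 at 219 CPM and LUM at 52.7 CPM, and COV504 had COL1A1 at 81.4 CPM. DCN reached 0.578 CPM and PDGFRB 0.859 CPM. Among endothelial markers, CDH5 was highest in COV504 at 24.9 CPM and PECAM1 in SK-OV-3 at 10.6 CPM, and VWF reached 0.546 CPM.

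Each line was compared with the IGROV-1 PromethION libraries by edgeR's quasi-likelihood test in 1 fit over all 10 libraries, with Benjamini-Hochberg adjustment over all 13030 genes tested and a call at an adjusted p under 0.05. The other lines have no replicates, so the spread in every comparison comes from IGROV-1. The fit takes the 4 IGROV-1 libraries as independent, although same-numbered ones deviated together across the instruments (r = 0.404). Of 60 tests of the 10 genes in 6 lines, 40 were called, 17 higher and 23 lower than in IGROV-1, where 41.1% of all tests were called. DESeq2 lost 20 of the 40. The shares of all genes here and below are those of edgeR, and none is given for DESeq2. ALDH1A2, ALDH1A3 and ALDH3A1 passed the filter on low counts only through the libraries in which they are high, and without them 30 of 42 tests were called, 7 higher and 23 lower. In OVMANA 8 of the 10 genes were called (35.4% of all genes), 3 higher (18.9%) and 5 lower (16.5%). In OVKATE 6 were called (49.2%), 3 higher (26.8%) and 3 lower (22.4%). In OVTOKO 4 were called (34.1%), 2 higher (18.2%) and 2 lower (15.9%). The counts describe these 10 genes only, next to the share of all genes called in the same comparison. The higher counts include ALDH1A3 in all 6 lines and ALDH3A1 in OVKATE, SK-OV-3, COV362 and COV504. Both genes were at 0 in IGROV-1 PromethION and could be called only higher. In COV362 no other gene of the 10 was called higher. In SK-OV-3 8 were called (41.8%), 4 higher (22.0%) and 4 lower (19.8%). In COV362 7 were called (42.5%), 2 higher (23.7%) and 5 lower (18.8%). In COV504 7 were called (43.5%), 3 higher (24.0%) and 4 lower (19.6%). Without IGROV-1 MinION replicate 1, 5 genes were called in SK-OV-3. All 6 comparisons share the IGROV-1 libraries. The fit's scaling moved changes by -0.30 to 0.08 on the log2 scale relative to the plain ratio of CPM. It turned the sign of 2 differences, ALDH9A1 in OVKATE and ALDH2 in SK-OV-3, neither of which was called.

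Lines that stand next to each other in the order of a gene's level were compared in the same fit. ALDH1A3 and ALDH3A1 were tested only because they are high in some of these lines. Their part of the counts in this paragraph is a description. Of 60 such pairs over the 10 genes, 15 passed the test, 39 did not and 6 were both at 0. The count was 7 without IGROV-1 MinION replicate 1 and 9 without MinION replicate 2. Neighbours are the closest pairs in a gene's own order, so the 15 have no like share over all genes. Over all pairs of lines, neighbours or not, 35.4% of tests on all genes were called. For OVMANA the share was 38.5% against OVKATE, 24.9% against OVTOKO, 34.3% against SK-OV-3, 36.5% against COV362 and 33.6% against COV504. For OVKATE it was 40.4% against OVTOKO, 38.5% against SK-OV-3, 33.2% against COV362 and 34.5% against COV504. For OVTOKO it was 26.7% against SK-OV-3, 34.9% against COV362 and 31.3% against COV504. Among the last 3 lines, the share was 35.4% for SK-OV-3 against COV362, 29.0% for SK-OV-3 against COV504 and 25.2% for COV362 against COV504. Counting all pairs of lines and not only neighbours, ALDH1A1 was called in 17 of 21. ALDH1A3, ALDH2, ALDH3A1 and ALDH18A1 were called in 15 each, ALDH3A2 in 13 and ALDH1B1 in 12. ALDH7A1 was called in 11, ALDH9A1 in 7 and ALDH1A2 in 0.

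**Figure D1:**
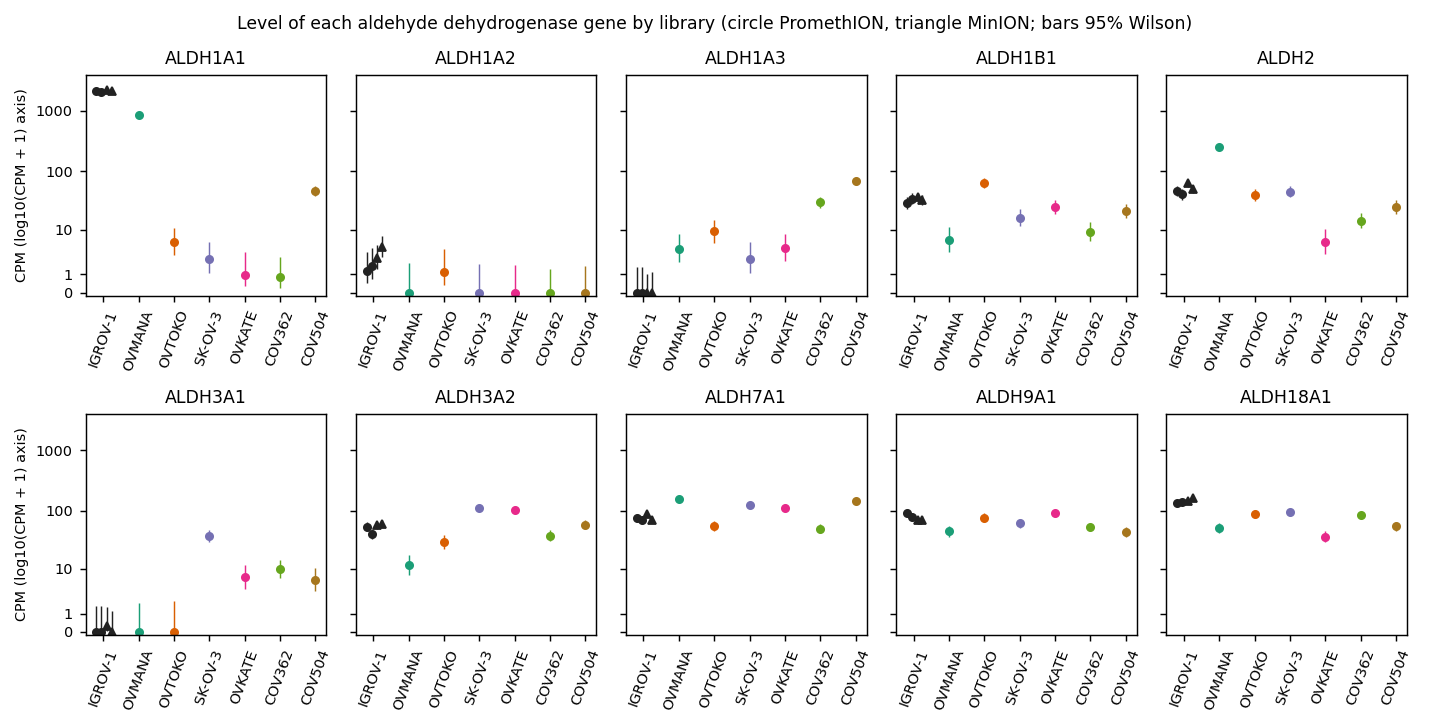
CPM of each of the 10 genes (y axis, log10(CPM + 1) scale) in each cell line (x axis); circles are PromethION and triangles MinION libraries, and bars are 95% Wilson intervals. ALDH2 is the joined gene. ALDH1A1 lies at 2067 to 2170 CPM in the 4 IGROV-1 libraries and at 850 CPM in OVMANA, whereas ALDH1A3 is at 0 in all 4 IGROV-1 libraries.

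ALDH1A1 set IGROV-1 and OVMANA apart from the rest. It was at 2140 and 2067 CPM in the IGROV-1 PromethION libraries and at 2170 and 2103 CPM in the MinION libraries. OVMANA had 850 CPM and COV504 46.7 CPM. OVTOKO had 5.78 CPM and SK-OV-3 2.53 CPM. The lowest levels were 0.989 CPM in OVKATE and 0.784 CPM in COV362, each from 2 counts. No library of another line overlapped the IGROV-1 range. For this and later statements on that range, the share of all genes that behave so is not given. ALDH1A1 alone held 83.5% of the summed CPM of the 10 genes in IGROV-1 and 61.9% in OVMANA, against 0.261% in OVKATE. By CPM it was the highest of the 10 genes in IGROV-1 and OVMANA. In COV504 it stood below ALDH7A1 (142 CPM), ALDH1A3 (69.4), ALDH3A2 (57.4) and ALDH18A1 (54.7). It ranked second there only per kilobase of its leading transcript, and CPM is not divided by length.

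ALDH1A1 was lower than in IGROV-1 in all 6 lines. The log2 change was -1.25 ± 0.16 (SE) in OVMANA (edgeR adjusted p = 0.00064) and -5.57 ± 0.22 in COV504 (adjusted p = 1.7e-06). The fit put OVTOKO at -8.42 ± 0.28 and SK-OV-3 at -9.89 ± 0.31. For the 2-count libraries, the ratio of IGROV-1 to OVKATE was 2126 (exact 95% counting interval 588 to 17560.5) and that to COV362 was 2684 (743 to 22169.2). All 6 of these calls were kept under all alternatives run. In the order of levels, the steps from IGROV-1 to OVMANA, COV504 and OVTOKO each passed the test. The neighbouring pairs OVTOKO and SK-OV-3 (edgeR adjusted p = 0.13), SK-OV-3 and OVKATE (0.32) and OVKATE and COV362 (1) did not. ALDH1A1 (chromosome 9, 72900662 to 73080442, minus strand) was read as 1 transcript, ENST00000297785, which took at least 99.997% of its counts in the 6 libraries that had 20 or more.

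ALDH1A2 (chromosome 15, 57953424 to 58497866, minus strand) was barely detected. IGROV-1 had 1.28 and 1.72 CPM (3 and 4 counts) on the PromethION and 2.73 and 4.63 CPM (10 and 15 counts) on the MinION. OVTOKO had 2 counts, and the other 5 lines had none. These lines' floors, 1.18 to 1.60 CPM, are close to the IGROV-1 PromethION level. None of the 6 comparisons was called (edgeR adjusted p from 0.076 to 0.91). With all 4 IGROV-1 libraries as the reference the comparisons with OVKATE, SK-OV-3, COV362 and COV504 passed, at adjusted p of 0.027, 0.036, 0.031 and 0.033, and without IGROV-1 PromethION replicate 1 that with OVKATE did, at 0.047.

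ALDH1A3 (chromosome 15, 100877714 to 100916626, plus strand) was highest in the COV lines and undetected in IGROV-1. It was at 69.4 CPM in COV504 and 29.8 CPM in COV362, from 156 and 76 counts. OVTOKO had 9.25 CPM, OVKATE 4.45 CPM and OVMANA 4.27 CPM. SK-OV-3 had 2.53 CPM, from 5 counts, and all 4 IGROV-1 libraries had 0. Against the floor of 3 counts over both IGROV-1 PromethION libraries, the level of ALDH1A3 was 108-fold higher in COV504 and 46.3-fold higher in COV362. It was 14.4-fold above the floor in OVTOKO, 6.93-fold in OVKATE, 6.65-fold in OVMANA and 3.94-fold in SK-OV-3. Ratios to a floor, here and below, leave out the counting error of the line's own count and are not lower bounds. EdgeR called all 6 (adjusted p from 5.6e-05 in COV504 to 0.029 in SK-OV-3), but the gene was tested only because it is high in some of these lines, so the calls are a description. The call in OVMANA was lost without IGROV-1 MinION replicate 1 (adjusted p = 0.058, range over alternatives 0.0013 to 0.058). That in SK-OV-3 was lost without MinION replicate 1 (0.08), without MinION replicate 2 (0.065) and under DESeq2 (0.088), over a range of 0.0056 to 0.088. COV504 stood above COV362 by a fitted log2 difference of 1.10 ± 0.29, and COV362 above OVTOKO by 1.65 ± 0.40. These lines are single libraries and IGROV-1, at 0, gives no spread for this gene, so both steps are a description. OVTOKO and OVKATE, OVKATE and OVMANA, and OVMANA and SK-OV-3 were not told apart.

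The 2 lines with most ALDH1A3 divided it differently between its forms. The form lacking 3 exons, shown above, took 63.9% of 76 counts in COV362 (95% Wilson interval 53.3% to 74.3%) and 19.4% of 156 counts in COV504 (13.8% to 26.1%). The full form took 34.8% in COV362 and 80.0% in COV504. OVMANA and OVTOKO, with 8 and 16 counts, gave the form lacking 3 exons 43.4% each, and in OVKATE it took 3.44% of 9 counts. The counting intervals of COV362 and COV504 do not overlap, but each is a single library. EdgeR's test of isoform shares between these lines, added after the shares were seen, gave an unadjusted p of 0.056 and an adjusted p of 0.55, where 0.359% of all genes were called. The 2 annotated forms also start 499 nt apart at the 5′ end.

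**Figure D2:**
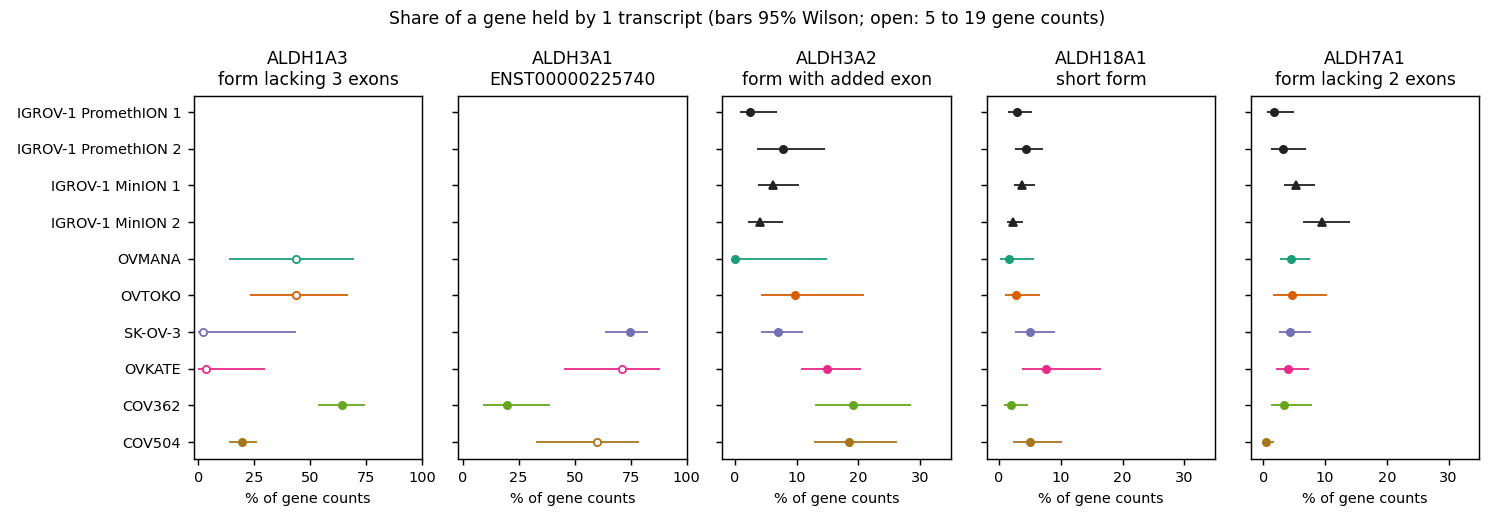
Share of a gene's counts held by 1 of its transcripts (x axis, percent) in each library (y axis), for 5 genes; bars are 95% Wilson intervals, open points have 5 to 19 counts of the gene, and libraries with fewer than 5 are left out. The form of ALDH1A3 lacking 3 exons takes 63.9% in COV362 and 19.4% in COV504, and the short form of ALDH18A1 takes 1.56% to 7.65% in all libraries.

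The mitochondrial acetaldehyde enzymes had separate orders. ALDH2 shares a joined identifier with ACAD10 and AC002996.1 in the deposited annotation, so its own transcripts are given for the levels. They stood at 252 CPM in OVMANA. SK-OV-3 had 42.5 CPM and IGROV-1 44.9 and 39.1 CPM on the PromethION and 60.3 and 48.8 CPM on the MinION. OVTOKO had 33.5 CPM and COV504 22.2 CPM. COV362 had 9.79 CPM, and OVKATE 1.48 CPM from 3 counts. OVMANA thus lay above every other library, and OVKATE below every other. The ratio of IGROV-1 to OVKATE was 28.3, with an exact 95% counting interval of 9.54 to 138.

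In the test of the joined gene, ALDH2 was higher than in IGROV-1 in OVMANA (log2 change 2.60 ± 0.20, edgeR adjusted p = 4.3e-05). It was lower in OVKATE (-3.18 ± 0.36, adjusted p = 2e-04), COV362 (-1.55 ± 0.29, 0.0032) and COV504 (-0.89 ± 0.27, 0.026). With the ALDH2 transcripts split from the joined gene, an alternative added after seeing the data, the change in OVKATE was -5.07 (adjusted p = 7e-05, range over alternatives 1.6e-14 to 0.0098), and no call of the 4 was lost. The call in COV362 was lost under DESeq2 (adjusted p = 0.058, range 6.3e-06 to 0.058), and that in COV504 under DESeq2 (0.41) and with no filter (0.055), over a range of 0.0056 to 0.41. OVTOKO, at -0.04 ± 0.26, was not called, nor was SK-OV-3, at -0.17 ± 0.25. ALDH2 itself was read as a single form, ENST00000261733 (chromosome 12, 111766922 to 111817529, plus strand), with at least 99.998% of the counts of ALDH2 transcripts in the 9 libraries that had 20 or more.

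ALDH1B1, the second mitochondrial enzyme, was highest in OVTOKO at 64.2 CPM. IGROV-1 had 29.05 and 34.8 CPM on the PromethION and 36.3 and 32.4 CPM on the MinION. OVKATE had 24.7 CPM, COV504 21.4 CPM and SK-OV-3 16.2 CPM. COV362 had 9.01 CPM and OVMANA, where ALDH2 was highest, had 6.41 CPM. ALDH1B1 was called higher in OVTOKO (log2 change 1.08 ± 0.23, edgeR adjusted p = 0.0071) and lower in OVMANA (-2.25 ± 0.36, 0.0017), COV362 (-1.78 ± 0.30, 0.0022) and SK-OV-3 (-1.20 ± 0.28, 0.0097). All 4 of these calls were lost under DESeq2 (adjusted p of 0.41, 0.064, 0.13 and 0.4 in that order). In OVKATE the change of -0.67 ± 0.26 was not called (edgeR adjusted p = 0.061), but it was without IGROV-1 PromethION replicate 1 (0.044), over a range of 0.041 to 0.71. The only neighbours in its order that passed the test were OVTOKO and IGROV-1. The gene (chromosome 9, 38392664 to 38398661, plus strand) has 1 transcript in the annotation.

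ALDH3A1 (chromosome 17, 19737984 to 19748943, minus strand) was found in 4 lines besides 1 count in IGROV-1. SK-OV-3 had 37.5 CPM from 74 counts. COV362 had 9.79 CPM, OVKATE 6.92 CPM and COV504 6.23 CPM. OVMANA, OVTOKO and both IGROV-1 PromethION libraries had 0, and 1 of the MinION libraries had 1 count. Against the IGROV-1 floor, the level of ALDH3A1 was 58.3-fold higher in SK-OV-3, 15.2-fold in COV362, 10.8-fold in OVKATE and 9.69-fold in COV504. EdgeR called all 4 (adjusted p of 0.00017, 0.0015, 0.004 and 0.0044), again as a description of a gene tested only because it is high in some of these lines, and the call in COV504 was lost under DESeq2 (0.05, range over alternatives 0.00026 to 0.05). SK-OV-3 stood above COV362 by a fitted log2 difference of 1.66 ± 0.43. Both are single libraries and IGROV-1, at 0 or 1 count, gives almost no spread for this gene, so this too is a description. COV362 and OVKATE, and OVKATE and COV504, were not told apart.

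The forms of ALDH3A1 differ mainly in where they start. ENST00000225740 took 74.7% of the counts in SK-OV-3 (95% Wilson interval 63.3% to 82.9%) and 19.9% of 25 counts in COV362 (8.86% to 39.1%). In COV362 the rest fell on ENST00000457500 (30.5%), ENST00000494157 (26.0%) and ENST00000444455 (23.1%). ENST00000457500 and ENST00000444455 encode the same 1359 nt as ENST00000225740 and start 2974 and 2821 nt downstream of it. ENST00000494157 lacks 1 of its exons. The test of shares between SK-OV-3 and COV362, added after the shares were seen, gave an adjusted p of 0.91, where 0.825% of all genes were called.

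ALDH3A2 (chromosome 17, 19648136 to 19677598, plus strand) was highest in SK-OV-3 at 111 CPM and OVKATE at 103 CPM. COV504 had 57.4 CPM. IGROV-1 had 53.4 and 40.4 CPM on the PromethION and 56.7 and 60.6 CPM on the MinION. COV362 had 38.0 CPM, OVTOKO 29.5 CPM and OVMANA 11.8 CPM. SK-OV-3 and OVKATE lay above and OVMANA below all 4 IGROV-1 libraries. ALDH3A2 was called higher in SK-OV-3 (log2 change 1.01 ± 0.20, edgeR adjusted p = 0.0044) and OVKATE (0.83 ± 0.20, 0.0094) and lower in OVMANA (-1.93 ± 0.30, 0.0015). The call in OVKATE was lost without IGROV-1 MinION replicate 1 (adjusted p = 0.053) and under DESeq2 (0.3), over a range of 0.00074 to 0.3, and that in SK-OV-3 under DESeq2 (0.21, range 7.4e-05 to 0.21). In OVTOKO the change was -0.59 ± 0.25 and was not called, but it was called without IGROV-1 PromethION replicate 2 (adjusted p = 0.043, range 0.043 to 0.72).

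The leading form of ALDH3A2, ENST00000176643, took 62.9% to 95.5% of its counts. The form with the added exon took 14.9% in OVKATE, 18.5% in COV504 and 19.2% in COV362. In the IGROV-1 libraries it took 2.51%, 7.85%, 6.22% and 4.11%, and its share was 7.07% in SK-OV-3 and 9.78% in OVTOKO. OVKATE, COV504, COV362 and OVTOKO thus lay above all 4 IGROV-1 libraries. The unadjusted p of the test of isoform shares against IGROV-1 PromethION was 0.09, 0.092, 0.094 and 0.51 in these lines, and none was called (adjusted p of 0.44, 0.55, 0.46 and 1). ENST00000395575 and ENST00000579855, which share the coding sequence length of 1455 nt with the leading form and start further downstream, took up to 13.4% and 11.8%.

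ALDH7A1, ALDH9A1 and ALDH18A1, of amino acid and carnitine metabolism, were read in every library. ALDH7A1 (chromosome 5, 126531200 to 126595418, minus strand) was at 154 CPM in OVMANA, 142 CPM in COV504, 126 CPM in SK-OV-3 and 112 CPM in OVKATE. IGROV-1 had 74.3 and 70.01 CPM on the PromethION and 86.2 and 70.8 CPM on the MinION. OVTOKO had 54.9 CPM and COV362 49.4 CPM. All 6 other lines lay outside the IGROV-1 range, but OVKATE, OVTOKO and COV362 were not called. ALDH7A1 was called higher in OVMANA (log2 change 1.15 ± 0.20, edgeR adjusted p = 0.0024), COV504 (0.90 ± 0.19, 0.0064) and SK-OV-3 (0.57 ± 0.20, 0.048). No pair of neighbours in its order passed the test. The call in SK-OV-3 was lost under 5 alternatives, among them without IGROV-1 PromethION replicate 2 (adjusted p = 0.089) and without MinION replicate 1 (0.052), over a range of 0.032 to 0.45, and the other 2 were lost under DESeq2 (0.052 in OVMANA, range 3.5e-05 to 0.052, and 0.14 in COV504, range 0.0012 to 0.14).

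ALDH9A1 (chromosome 1, 165662216 to 165698863, minus strand) was at 89.5 CPM in OVKATE and 76.3 CPM in OVTOKO. IGROV-1 had 91.4 and 78.6 CPM on the PromethION and 69.0 and 69.8 CPM on the MinION, so both lines lay within the IGROV-1 range. SK-OV-3 had 60.8 CPM, COV362 53.3 CPM, OVMANA 44.9 CPM and COV504 43.6 CPM, all below every IGROV-1 library. ALDH9A1 was called lower in COV504 (log2 change -1.04 ± 0.20, edgeR adjusted p = 0.0034), OVMANA (-0.86 ± 0.20, 0.011), SK-OV-3 (-0.71 ± 0.19, 0.017) and COV362 (-0.63 ± 0.19, 0.027). The calls in SK-OV-3 and COV362 were lost without PromethION replicate 1 (adjusted p of 0.065 and 0.11), MinION replicate 1 (0.057 and 0.069) or MinION replicate 2 (0.06 and 0.067), over ranges of 0.0092 to 0.5 and 0.019 to 0.57. That in OVMANA was lost without MinION replicate 1 (0.052, range 0.0031 to 0.41). All 4 were lost under DESeq2, at 0.23 in COV504 (range 0.00021 to 0.23). Again no neighbours were told apart.

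ALDH18A1 (chromosome 10, 95605929 to 95656706, minus strand) was highest in IGROV-1, at 133 and 139 CPM on the PromethION and 143 and 163 CPM on the MinION. SK-OV-3 had 92.7 CPM, OVTOKO 87.9 CPM and COV362 83.1 CPM. COV504 had 54.7 CPM, OVMANA 50.8 CPM and OVKATE 36.6 CPM. No other line reached the IGROV-1 range. ALDH18A1 was called lower in all 6 lines, from -2.19 ± 0.19 in OVKATE (edgeR adjusted p = 4.9e-05), -1.39 ± 0.18 in COV504 (0.00045) and -1.36 ± 0.18 in OVMANA (0.00072) to -0.78 ± 0.17 in SK-OV-3 (0.0063), -0.67 ± 0.17 in COV362 (0.012) and -0.55 ± 0.17 in OVTOKO (0.036). The OVTOKO call was lost under 7 alternatives, including the removal of any 1 IGROV-1 library (adjusted p of 0.066 to 0.11), over a range of 0.036 to 0.6. Those in SK-OV-3 and COV362 were lost under DESeq2 (0.31 and 0.43, ranges 0.0052 to 0.31 and 0.012 to 0.43). The steps from IGROV-1 to SK-OV-3, from COV362 to COV504 and from OVMANA to OVKATE passed the test, and the others in its order did not.

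**Figure D3:**
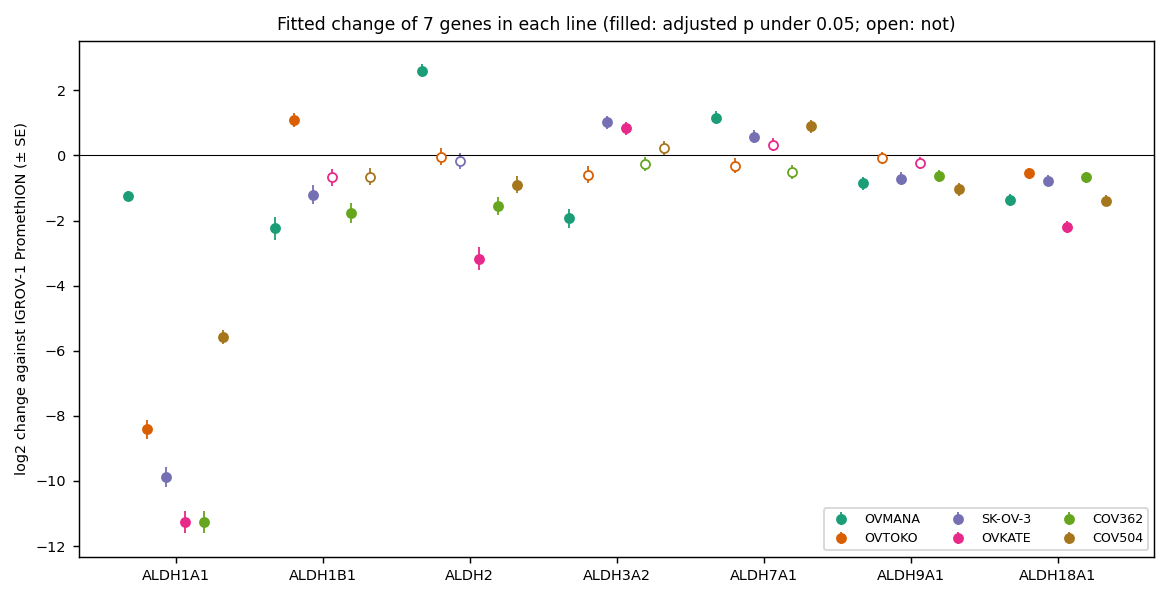
Fitted log2 change against IGROV-1 PromethION (y axis, ± SE) of 7 of the 10 genes (x axis) in each of 6 lines (colours); filled points passed an adjusted p under 0.05 and open points did not. ALDH1A2, ALDH1A3 and ALDH3A1 are left out because their fitted changes rest on groups at or near 0 counts. ALDH1A1 and ALDH18A1 lie below 0 in all 6 lines.

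Among the forms of these last 3 genes, ENST00000409134 took 76.3% to 94.9% of ALDH7A1, ENST00000354775 was the only form of ALDH9A1, and the long form of ALDH18A1 took 92.3% to 98.4%. The short form of ALDH18A1, named after its values were seen because it differs by the 6 bases shown, took 2.98% and 4.30% in the IGROV-1 PromethION libraries and 3.76% and 2.31% in the MinION libraries. The other lines ran from 1.56% in OVMANA to 7.65% in OVKATE. In the 6 lines against IGROV-1 PromethION, none of 18 tests of isoform shares over ALDH3A2, ALDH7A1 and ALDH18A1 was called by edgeR, and none had an unadjusted p under 0.05, where 2.69% of all tests were called (2.79% in OVMANA, 4.76% in OVKATE, 1.31% in OVTOKO, 2.01% in SK-OV-3, 2.75% in COV362 and 2.54% in COV504). ALDH1A3 and ALDH3A1 have no share in IGROV-1 PromethION, where they are at 0. No other tool was run for shares. The joined gene of ALDH2, where such a test sets ALDH2 against ACAD10, had 2 of 6 tests with an unadjusted p under 0.05 and none called.

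ALDH1A1 and ALDH18A1 were the 2 genes called lower in all 6 lines, and their upstream sequences are shown to compare them. RefSeq promoter entries (GRCh38.p14) were matched for 8 of the 10 genes. The ALDH1A1 stretch lies on chr9:72953056-72953303 and the ALDH18A1 stretch on chr10:95656712-95656961, both on the minus strand and printed 5′ to 3′ toward the start site. Capitals mark, on either strand, CCAAT and ATGCAAAT in ALDH1A1 and CACGTG and TGACGT in ALDH18A1.
ALDH1A1 upstream stretch: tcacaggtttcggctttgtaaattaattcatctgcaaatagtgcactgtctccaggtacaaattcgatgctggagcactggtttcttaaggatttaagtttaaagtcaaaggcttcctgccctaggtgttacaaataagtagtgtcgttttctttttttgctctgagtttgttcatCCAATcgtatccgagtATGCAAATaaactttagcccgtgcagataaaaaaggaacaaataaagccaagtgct
ALDH18A1 upstream stretch: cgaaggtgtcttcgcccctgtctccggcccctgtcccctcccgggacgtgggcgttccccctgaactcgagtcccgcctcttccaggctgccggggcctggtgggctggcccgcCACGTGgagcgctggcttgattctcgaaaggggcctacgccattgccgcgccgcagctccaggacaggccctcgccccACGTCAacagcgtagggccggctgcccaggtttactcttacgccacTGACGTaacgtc
The ALDH1A1 stretch has a GC content of 38.3% and holds CCAAT and ATGCAAAT once each, 74 and 58 bases before the start. Of the same 250 bases before the start in 35116 RefSeq promoters, 32% hold CCAAT and 1.63% hold ATGCAAAT on either strand. The ALDH18A1 stretch has a GC content of 68.8% and holds CACGTG once, 136 bases before the start, and TGACGT in 2 places, and these motifs are in 6.34% and 7.1% of these windows. The 2 stretches share none of the 4 motifs. The matches are a description of the letters and not of binding.

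Within IGROV-1 the 2 instruments were compared over 4 libraries. ALDH1A2, ALDH1A3 and ALDH3A1 did not pass the filter on low counts. Of the other 7 genes, edgeR called none in the fit without a block, against 0.817% of 10041 genes, and DESeq2 called none. One gene had an unadjusted p under 0.05, ALDH9A1, which was lower on the MinION (log2 change -0.33 ± 0.14, unadjusted p = 0.044, adjusted p = 0.29). With the replicate number as a block, edgeR called ALDH9A1, but the labels do not say that these numbers pair libraries. Without the block, the differences of the other 6 lay between -0.02 ± 0.12 for ALDH1A1 and 0.33 ± 0.18 for ALDH2. The 95% interval for ALDH1A1 was -0.30 to 0.27 and that for ALDH18A1 was -0.15 to 0.40.

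At the transcript level and without a block, none of 9 transcripts was called by edgeR or DESeq2, where 2.29% of all transcripts were called by edgeR. With the replicate number as a block, edgeR called 1 transcript. The form of ALDH7A1 that lacks 2 exons, ENST00000636743, named after its values were seen, had the 1 unadjusted p under 0.05 (0.017, edgeR adjusted p = 0.18). It took 1.67% and 3.22% of ALDH7A1 on the PromethION and 5.27% and 9.44% on the MinION, without overlap. The share of all transcripts that do not overlap between 2 and 2 libraries is not given. It rests on 2.91 to 21.6 estimated counts per library. In the test of shares, neither ALDH7A1 (unadjusted p = 0.051) nor ALDH18A1 (0.96) was called, where 5.91% of all genes were.

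Of 9 further family members, ALDH1L1 and ALDH8A1 did not pass the filter on low counts, and ALDH4A1 and ALDH16A1 lie in joined identifiers. Of the 42 tests of the other 7 over 6 lines, 13 were called higher and 3 lower than in IGROV-1, which is 38.1% called against a background of 41.1%. DESeq2 called 3. ALDH3B1, which oxidises lipid aldehydes, was at 5.55 and 5.58 CPM in IGROV-1 PromethION and was called higher in 5 lines, reaching 103 CPM in OVKATE (log2 change 3.89 ± 0.23, edgeR adjusted p = 8.7e-06). ALDH3B2, its close relative, was at 10.4 CPM in OVKATE, 16.2-fold above the IGROV-1 floor, and at 0 or 0.445 CPM in all other libraries. It was at 0 in IGROV-1 PromethION and could be called only higher, and its call in OVKATE is among the 13. The genes are close relatives, so reads may be split between them. ALDH1L2, a mitochondrial folate enzyme, was called higher in OVMANA and COV362, at 6.41 and 9.40 CPM. ALDH6A1, of valine breakdown, was called higher in 4 lines. ALDH4A1 was called lower in 2 lines and ALDH5A1 in 1, and ALDH16A1 was called higher in 1.

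**Figure D4:**
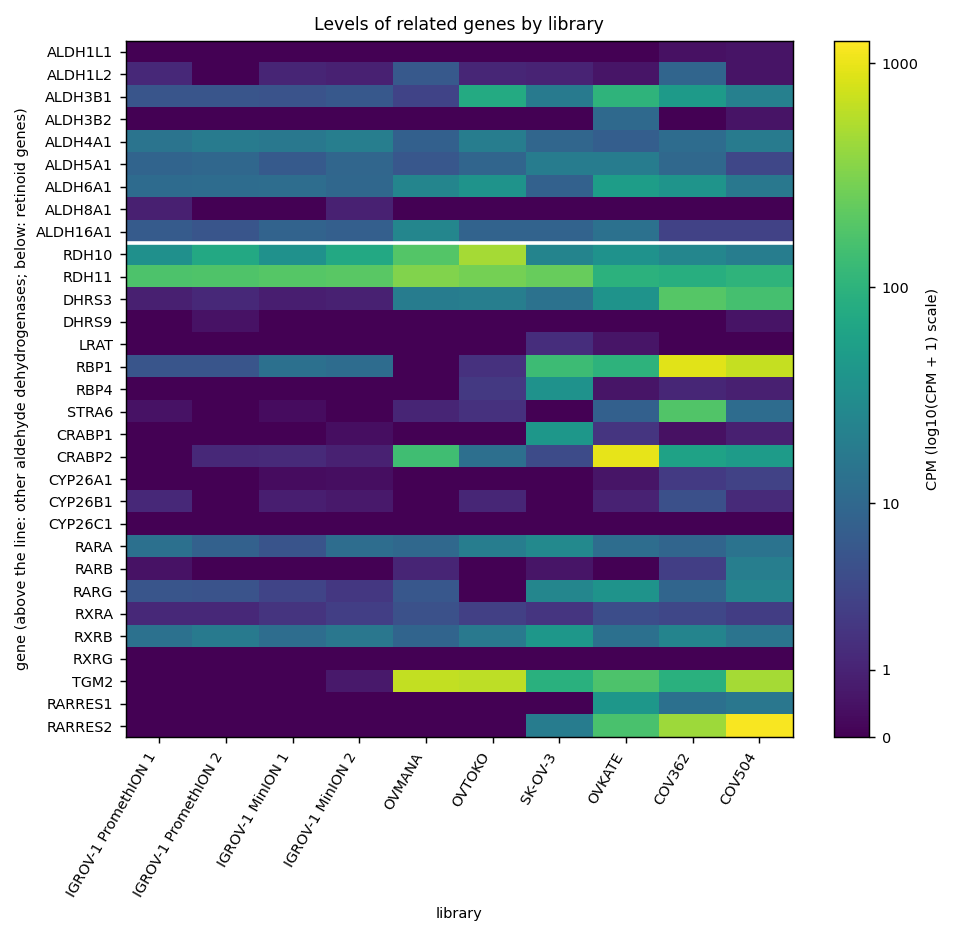
CPM (colour, log10(CPM + 1) scale) of the other aldehyde dehydrogenase genes and the retinoid genes (rows) in each of the 10 libraries (columns). TGM2 is at 0 or 0.618 CPM in the IGROV-1 libraries and at 91.2 to 648 CPM in the other 6 lines.

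The retinoid genes surround the reaction of the ALDH1A enzymes: they make retinaldehyde, carry retinoids, break down retinoic acid, or answer to it. Of 22 genes, 17 were tested in each line, and of these 102 tests 44 were called higher and 6 lower than in IGROV-1, which is 49% called against a background of 41.1%. Genes at 0 in IGROV-1 PromethION, TGM2 and RARRES2 among them, could be called only higher. Their calls are a description and are part of these totals. TGM2, a transglutaminase gene known to respond to retinoic acid, was at 0 in both IGROV-1 PromethION libraries and was called higher in all 6 lines. It reached 648 CPM in OVMANA, 1009-fold above the IGROV-1 floor. RARRES2, the gene of the chemoattractant chemerin, was at 0 in all 4 IGROV-1 libraries and also in OVMANA and OVTOKO. It was at 1161 CPM in COV504, 1807-fold above the floor, and called higher in 4 lines. CRABP2, which carries retinoic acid to its receptors, was at 0 and 1.29 CPM in IGROV-1 PromethION and at 970 CPM in OVKATE, and was called higher in 5 lines. No line held less of these 3 transcripts than IGROV-1, the line with most ALDH1A1, while OVMANA, with 850 CPM of ALDH1A1, held most TGM2.

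For ALDH18A1, the proline and glutamate genes gave 15 calls higher and 23 lower in 72 tests, which is 52.8% called against a background of 41.1%. DESeq2 called 18. GLUL, glutamine synthetase, was at 539 and 870 CPM in IGROV-1 PromethION and was called lower in all 6 lines, as ALDH18A1 was, down to 5.20 CPM in OVTOKO (log2 change -6.99 ± 0.58, edgeR adjusted p = 7e-05). PRODH, which opens proline breakdown, was at 31.6 and 33.9 CPM in IGROV-1 PromethION and called lower in 4 lines, with 0 in SK-OV-3. ARG2, a mitochondrial arginase, was called lower in OVKATE alone among the 6 lines, at 0.495 CPM.

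The targets of NRF2, the transcription factor of the response to electrophiles, gave 43 calls higher and 21 lower in 102 tests, which is 62.7% called against a background of 41.1%. DESeq2 called 41. ME1, malic enzyme, was at 0 in all 4 IGROV-1 libraries and called higher in all 6 lines, at up to 75.2 CPM in OVTOKO. From 0, ME1 could be called only higher, so its calls are a description. AKR1C1 was at 779 CPM in OVTOKO and 1.28 and 1.72 CPM in IGROV-1 PromethION, and AKR1C2 was at 205 CPM in SK-OV-3. These aldo-keto reductases are near-identical, so reads may be split between them. The alcohol and aldehyde reduction genes gave 20 calls higher and 3 lower in 36 tests, which is 63.9% called against a background of 41.1%. DESeq2 called 9. CBR3 was at 0 in all 4 IGROV-1 libraries and at 17.6 CPM in COV362, so it too could be called only higher. AKR1B1 reached 1026 CPM in OVTOKO, CBR1 reached 587 CPM in SK-OV-3, and each was called higher in 5 lines.

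Genes with a pattern like that of each enzyme were read over the 7 lines, as Pearson's r of log2(CPM + 1) among the 10671 genes whose CPM averaged 5 or more. With 7 lines and this many genes, high values arise for every gene, and they are given as a description that shares libraries and depth. GTF2H2 was closest to ALDH1A1 (r = 0.990), at 19.7 CPM in IGROV-1, 18.7 CPM in OVMANA and 4.31 to 8.90 CPM elsewhere; it has near-identical copies in the genome. WDR43 (0.971) and CD2AP (0.962) followed. For ALDH1A3 the closest were EIF2AK2 (0.987), RTP4 (0.960) and CCDC80 (0.956). ENTPD5 was closest to ALDH2 (r = 0.988), at 25.1 CPM in OVMANA and 2.47 CPM in OVKATE, before PRDX1 (0.963) and PSMA3 (0.958). ESR1, the oestrogen receptor gene, was closest to ALDH3A1 (r = 0.978), at 33.9 CPM in SK-OV-3, 15.3 CPM in OVKATE and 0 in OVMANA, OVTOKO and IGROV-1 PromethION, before CCNA1 (0.977) and PFDN1 (0.973). For ALDH3A2 they were PNPLA8 (0.985), SH3PXD2B (0.983) and SAP30L (0.973). For ALDH18A1 they were HENMT1 (0.985), EEF2 (0.974) and RFLNB (0.967). For ALDH1B1 they were CASK (0.960), a joined entry with GABARAP (0.960) and NEDD4 (0.954). ALDH7A1 had DDX6 (0.946), AP2A1 (0.932) and UBE2S (0.931), and ALDH9A1 had GGACT (0.949), CCNB1IP1 (0.940) and SVIL-AS1 (0.937).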

How the data were processed

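The data are 10 nanopore RNA-seq libraries of 7 cell lines. The authors deposited, per the file headers, an estimated count per transcript and a TPM value, which equalled CPM to within 5.6e-11 and so is not divided by length. The submitters' processing notes name minimap2 2.24-r1122 and GRCh38. The quantifier and the annotation release were not named in the sources. Transcript counts were summed per gene, rounded, and tested with edgeR 4.0.16 in R 4.3.3 (TMM, filterByExpr, quasi-likelihood test, residual df of 2), and isoform shares with edgeR's diffSpliceDGE. Rounding moved no library total by more than 0.0258%. DESeq2 1.42.0, other normalization and filters, and leaving out each IGROV-1 library were alternatives. The tests were checked on simulated data. Exon structure and transcript sequences are from GENCODE 29.

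The 10 genes and the lists were chosen with earlier results of these data known. All 10 genes are named; transcripts are named at 10% or more of a gene with 20 or more counts; list genes are the 3 with the largest called change per list or belong to the family; like genes are the closest by correlation.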

Additional observations from a re-analysis of the deposited data

How the results depend on the processing

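Of the 40 calls on the 10 genes against IGROV-1, 19 were kept under all alternatives run. Of the rest, 12 were lost under DESeq2 alone and 9 under others, and none turned direction. The 19 include 4 calls of ALDH1A3 and 3 of ALDH3A1, genes tested only because they are high in some of these lines. Under DESeq2 the called genes numbered 5 in OVMANA, 2 in OVTOKO, 2 in SK-OV-3, 3 in COV362 and 3 in COV504. The neighbouring pairs it called numbered 4 (15 by edgeR). Its list calls were 3 for the other aldehyde dehydrogenases, 18 for proline and glutamate, 41 for NRF2 targets and 9 for alcohol and aldehyde reduction. The share of all genes called by DESeq2 is not given, so these counts have no background. Leaving out each IGROV-1 library gave 5 to 7 called genes in SK-OV-3, with 5 when MinION replicate 1 was left out, and 7 to 17 neighbouring pairs, with 7 and 9 when MinION replicate 1 or 2 was. The cause was not tested.

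Differences that turned sign were never called. ALDH2 in OVTOKO was at 0.012 with DESeq2's size factors and 0.012 under DESeq2, and at -0.14 to 0.061 over the left-out libraries. ALDH9A1 in OVTOKO was at 0.079 against all 4 IGROV-1 libraries and at -0.18 to 0.031 over the left-out libraries. Between instruments ALDH1A1 was at 0.0097 with no filter, and over the left-out libraries ALDH1A1 was at -0.081 to 0.054, ALDH1B1 at -0.057 to 0.20 and ALDH7A1 at -0.11 to 0.26. The split of ALDH2, and the alternatives for neighbouring pairs and lists, were chosen after seeing the data.

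Same-numbered IGROV-1 libraries deviated together (r = 0.404 over 9376 genes). The labels do not say whether the numbers pair libraries, and whether they do was not tested. If they do, the spread behind the line tests rests on fewer independent samples than the fit takes. With the replicate number as a block, 1 gene (ALDH9A1, log2 change -0.33, adjusted p = 0.015) and 1 transcript were called between instruments, and 0 genes by shares. Libraries with few counts limit ALDH1A2, ALDH1A3 and ALDH3A1.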
